A study of Mus musculus with 8 samples.

Results

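The class I antigen presentation machinery of spleen neutrophils was followed through 8 genes: H2-K1, H2-D1, B2m, Tap1, Tap2, Tapbp, Nlrc5 and Erap1. They were chosen by name as rows of the deposited count tables, 8 of the 55414 Ensembl identifiers listed, and all 8 passed the filter on low counts that left 16778 genes for testing. RNA came from neutrophils of 4 WT and 4 Cxcr2-/- mice of 10 weeks, all on the FVB background, with 1 library per mouse and replicates numbered 1 to 4 in each group. Cells were enriched with CD11b and sorted as CD45+ CD11b+ Ly6G+ and, per the methods, F4/80-. The Cxcr2 deletion was carried by the whole animal, so that every other cell type of the donor spleen lacked the receptor too. Counts on genes ranged from 34220182 to 46233555 per library.

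MHC class I molecules show peptides from inside the cell to CD8+ T cells and natural killer cells. A heavy chain, encoded in the mouse by H2-K1 and H2-D1 among others, folds with beta-2 microglobulin in the endoplasmic reticulum, where it takes up peptides that the proteasome has cut, the transporter Tap1/Tap2 has carried in and Erap1 has trimmed, with tapasin (Tapbp) holding the empty molecule at the transporter. Nlrc5 is a transactivator of class I genes, many of which are also known to rise with interferon.

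With all 8 libraries, only Erap1 differed between the groups. It was higher in Cxcr2-/- neutrophils, and the other 7 genes did not pass the test. A single library, Cxcr2-/- replicate 1, had the highest level of all 8 libraries for 5 of the 8 genes. Without it H2-K1, H2-D1, B2m, Tapbp and Nlrc5 were lower in Cxcr2-/- neutrophils. Leaving out any other single library gave 0 or 1 of the genes lower. Levels are in CPM, the counts on a gene as a share of the counts on all genes, scaled by library sizes that the TMM method of edgeR adjusts, and a log2 fold change above 0 means a higher level in Cxcr2-/- cells, with SE for its standard error. A gene passed with an adjusted p under 0.05 in the quasi-likelihood test of edgeR, adjusted by Benjamini-Hochberg over all genes tested. Since these are bulk samples, fewer cells of a type and less RNA per cell cannot be told apart.

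Cxcr2 itself was at 1719 to 2252 CPM in WT and at 12.9 to 20.7 CPM in Cxcr2-/- libraries, in the direction of every label. Of the 8 neutrophil markers, S100a8 and S100a9 were the highest in every library, and the 8 summed to between 31080 and 44810 CPM in WT and between 67650 and 81580 CPM in Cxcr2-/- libraries. Of the 8, 6 were higher and 1 lower in Cxcr2-/- libraries, the latter being the receptor gene Csf3r (log2 fold change -1.06). For this and the marker counts that follow, 23.7% of all genes tested were higher and 21% lower. All 6 markers of granulocyte precursors and dividing cells were higher in Cxcr2-/- libraries, where they summed to between 801.5 and 1113 CPM against 248 to 304 CPM in WT. Of the markers of other cells, 6 of 7 for B cells were lower (66.5 to 156 CPM in sum in WT and 29.3 to 66.4 CPM in Cxcr2-/- libraries), as was 1 of 4 tested for dendritic cells (45.4 to 218 and 20.5 to 67.4 CPM). For monocytes and macrophages 2 were higher and 2 lower of 7, including Csf1r and Ly6c2, which neutrophils also express (698 to 815 and 844 to 963 CPM). For eosinophils 2 were higher and 2 lower of 4 (48.8 to 68.9 and 37.6 to 64.1 CPM). Of the T cell markers 1 of 3 tested was lower, and their sum of 96.2 to 117 CPM in WT and 90.3 to 138.5 CPM in Cxcr2-/- libraries was nearly all Cd3d, while Cd3e, Trac and Cd8a stayed under 0.6 CPM. The 4 natural killer markers, with 0.267 to 3.54 CPM in WT and 1.19 to 2.84 CPM in Cxcr2-/- libraries, and the 2 erythroid markers tested, with 1.36 to 3.69 and 1.16 to 10.3 CPM for the list of 4, did not pass. A covariate for the RNA of other cells was the log2 summed CPM of the B cell, T cell, natural killer, monocyte and macrophage, dendritic and eosinophil markers. Because it included Csf1r and Ly6c2, it also held RNA of neutrophils and was not a measure of other cells alone. With this covariate, the fit gave 1 of the 8 class I genes higher (Erap1) and 1 lower (B2m, edgeR adjusted p = 0.0481).

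Cxcr2-/- replicate 1 stood apart by its levels of these same genes, so the fits without it are a description and not separate evidence. That library was at least 1.5 times above the highest of the other 7 libraries for H2-K1 and Tap1, 2 of the 8 genes, against 0.65% of all genes tested. Among the 7502 genes whose average log2 CPM was 3 or more, this held for 19 genes, with 2 members and 3 other genes of the pathway, H2-Q4, H2-T10 and Stat2. The rest, chosen after their values were seen, included Gbp2, Gbp7, Igtp, Irgm1, Irgm2, Oas1a, Oas2, Oas3, Oasl2 and Rtp4, all known as interferon-induced genes. Oas1a, Oas2 and Oas3 were above every WT library in Cxcr2-/- replicates 2 to 4 as well. Oas2 was at 60.4 to 73.4 CPM in those replicates and at 22.9 to 35.1 CPM in WT. None of the other genes named here exceeded the highest WT library in replicates 2 to 4. Gbp2, a guanylate-binding protein, was at 214 CPM in that library and at 51.8 to 96.1 CPM in the other 7. WT replicate 2 and Cxcr2-/- replicate 3 stood as far above the rest for 24 and 19 genes, with 1 gene of the pathway in the first and none in the second. Among the 4 Cxcr2-/- libraries, replicate 1 was the highest for 7 of the 8 members, with Erap1 the exception. Its B cell, dendritic and natural killer marker sums were within the range of the other libraries, and its T cell sum, through Cd3d at 135.5 CPM, was the highest. Its neutrophil marker sum was the highest too (81580 CPM, next 81330), and its eosinophil sum the lowest (37.6 CPM, next 38.5). Among the 4 Cxcr2-/- libraries it had the lowest sum for granulocyte precursors, 801.5 CPM against 899 to 1113 CPM.

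**Figure D1:**
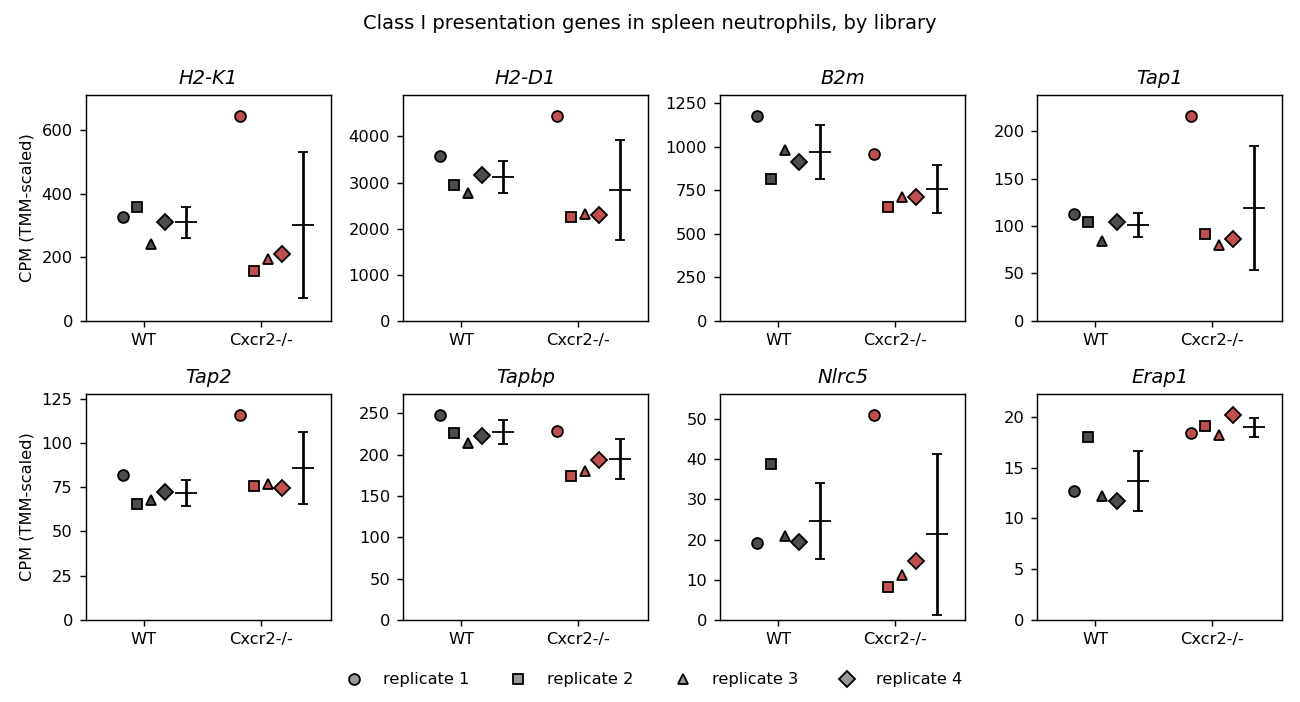
CPM of the 8 class I genes in each library (y axis, linear from 0), with WT in grey and Cxcr2-/- in red, the marker shape giving the replicate number, and a bar for the mean and SD of the 4 libraries. Cxcr2-/- replicate 1 (circle) is the highest of the 8 libraries for H2-K1, H2-D1, Tap1, Tap2 and Nlrc5, and only Erap1 has no overlap between the groups.

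The promoters show what several of these genes share beyond their role. The bases before the start site of H2-K1 (chr17:34000348-34000527, minus strand) and of B2m (chr2:122147507-122147685, plus strand) are given, and both hold all 4 motifs searched, here in capitals. They come from RefSeq on GRCm38.p6, which is C57BL/6J sequence, and the FVB alleles may differ.
H2-K1: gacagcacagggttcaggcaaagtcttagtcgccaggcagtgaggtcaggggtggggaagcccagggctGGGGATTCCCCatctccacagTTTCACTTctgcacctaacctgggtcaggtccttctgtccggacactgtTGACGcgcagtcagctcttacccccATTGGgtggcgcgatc
B2m: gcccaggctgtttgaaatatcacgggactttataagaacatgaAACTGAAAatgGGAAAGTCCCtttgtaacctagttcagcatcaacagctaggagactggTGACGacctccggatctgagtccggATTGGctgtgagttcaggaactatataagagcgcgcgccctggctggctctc

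From left to right the capitals mark the NFkB consensus and the IRF core (AANNGAAA) in H2-K1, in the other order in B2m, then the core of the X2 box (TGACG) and the core of the Y box (ATTGG). The X and Y boxes are known as the module through which Nlrc5 and the RFX and NFY factors act on class I promoters, and IRF and NFkB sites as those that answer to interferon and inflammatory signals. Both strands were searched over the 250 bases before the start, and no motif overlapped another, apart from the 4 overlapping readings of the palindromic NFkB match in H2-K1 and H2-D1. Of 27025 promoters, 1 per gene, 17.9% held the X2 core, 34.5% the Y box core, 21.6% the IRF core and 3.75% the NFkB consensus, and 0.0777% held all 4, which H2-D1 did as well. The X2 core began 25 bases before the Y box core in H2-K1, H2-D1 and B2m, an arrangement noticed after the sequences were seen and held by 25 promoters in all (0.0925%). The stretch from one core to the other, 30 bases, is set side by side for these genes.
H2-K1: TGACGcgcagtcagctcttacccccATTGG
H2-D1: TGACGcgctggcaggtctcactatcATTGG
B2m: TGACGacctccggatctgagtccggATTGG

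H2-K1 (chr17:34000359-34000388) and H2-D1 (chr17:35262993-35263022) had the same base at 23 of the 30 positions. The H2-D1 stretch lies before the RefSeq start but within the gene as annotated here (35262730 to 35267499), so its full window is not printed. B2m (chr2:122147609-122147638) shared 13 with H2-K1 and 12 with H2-D1, 10 of which are the cores themselves. Of the other members with a promoter in the table, Tap1 held the X2 core and, further away on the opposite strand, a Y box core, Tapbp held only Y box cores, and Erap1 held none of the 4 motifs in this window. Tap2 and Nlrc5 had no entry. A match of letters is a description and not a bound site.

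Levels can be compared between genes per length. Per kilobase of exon, H2-D1 was at 1207 ± 134 CPM and B2m at 1130 ± 180.4 CPM in WT neutrophils (SD, n = 4), with overlapping ranges, and H2-K1 followed at 105 ± 16.9 CPM. Tapbp was at 62.8 ± 3.99 CPM per kilobase, above Tap2 at 19.0 ± 1.90 and Tap1 at 18.4 ± 2.24, whose ranges overlapped. Nlrc5 at 2.90 ± 1.12 and Erap1 at 1.88 ± 0.406 CPM per kilobase were the lowest, again with overlapping ranges. FVB mice carry another H2 haplotype than the C57BL/6J reference, so that reads of the polymorphic H2-K1 and H2-D1 may map less well or be split with near-identical copies. The counts of those genes are therefore uncertain as levels. In Cxcr2-/- neutrophils the order by mean was the same except that Erap1, at 2.61 ± 0.124 CPM per kilobase, came before Nlrc5, at 2.51 ± 2.36, with overlapping ranges.

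H2-K1, on chromosome 17 from 33996017 to 34000347 (GRCm38), encodes the K heavy chain. It was at 328, 358, 241 and 311 CPM in WT replicates 1 to 4 and at 646, 155, 193 and 211 CPM in Cxcr2-/- replicates 1 to 4. Replicate 1 of the Cxcr2-/- group lay above all WT libraries and the other 3 below all of them. The means were 309 ± 49.5 CPM and 301 ± 231 CPM (SD, n = 4), with a log2 fold change of -0.04 (SE 0.36, edgeR adjusted p = 0.942). Without that library the Cxcr2-/- mean was 187 ± 28.7 CPM (n = 3) and H2-K1 was 39.5% lower than in WT (log2 fold change -0.73, SE 0.15, edgeR adjusted p = 0.00179).

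H2-D1, from 35262730 to 35267499 on the same chromosome, encodes the D heavy chain. It held most of the counts assigned to H2-K1 and H2-D1, as H2-K1 made up 6.44% to 12.7% of the summed CPM of both genes. With FVB reads mapped to a reference of another H2 haplotype, this split is uncertain. H2-D1 stood at 3573, 2941, 2776 and 3161 CPM in WT and at 4454, 2252, 2316 and 2303 CPM in Cxcr2-/- replicates 1 to 4. The pattern was that of H2-K1, with replicate 1 above and replicates 2 to 4 below every WT library. Its log2 fold change was -0.14 (SE 0.21, edgeR adjusted p = 0.623) and, without replicate 1, -0.44 (SE 0.12, adjusted p = 0.0115), a fall of 26.1%.

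B2m, the light chain of all class I molecules, lies on chromosome 2 from 122147686 to 122153083. Its levels were 1179.9, 814, 983 and 910.4 CPM in WT and 961, 653, 712 and 712 CPM in Cxcr2-/- replicates 1 to 4. Here replicate 1 of the Cxcr2-/- group lay within the WT range, and the other 3 below it. The log2 fold change of -0.36 (SE 0.15) missed the threshold with edgeR (adjusted p = 0.0650) and passed narrowly with DESeq2 (adjusted p = 0.0491). B2m was negative in all of the 18 alternative fits run and lower past the threshold in 11 of them, among them those without WT replicate 2 (log2 fold change -0.46, edgeR adjusted p = 0.0295) and without Cxcr2-/- replicate 1 (-0.48, adjusted p = 0.0103).

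Summed over 22 matched H2 class I heavy chain genes, H2-K1 and H2-D1 included, heavy chain RNA was at 4153, 3552, 3211 and 3698 CPM in WT and at 5506, 2554, 2673 and 2683 CPM in Cxcr2-/- replicates 1 to 4. The groups overlapped through replicate 1 alone, and their mean log2 values differed by -0.20 (two-sided exact permutation test, p = 0.514). Without it the difference was -0.46, with p = 0.0571 in the same exact test, the smallest that 3 against 4 libraries allow. H2-K1 and H2-D1 together gave 3.31, 4.05, 3.07 and 3.81 times the CPM of B2m in WT and 5.31, 3.68, 3.53 and 3.53 times in Cxcr2-/- replicates 1 to 4. The ratio was highest in replicate 1 of the Cxcr2-/- group, and the other 3 lay within the WT range. The log2 difference was 0.16 with all libraries (exact permutation test, p = 0.457) and 0.02 without that library (p = 0.914).

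Tap1 and Tap2 encode the chains of the peptide transporter and lie close together on chromosome 17, from 34187553 to 34197225 and from 34203527 to 34216321. Tap1 was at 112, 104, 83.6 and 104 CPM in WT and at 216, 91.0, 80.4 and 86.6 CPM in Cxcr2-/- replicates 1 to 4. Tap2 was at 81.6, 65.4, 67.7 and 72.3 CPM in WT and at 116, 75.8, 76.8 and 74.4 CPM in Cxcr2-/- replicates. Both were highest in replicate 1 of the Cxcr2-/- group, and the groups overlapped for both, with that library or without it. Tap1 had a log2 fold change of 0.23 (SE 0.27, edgeR adjusted p = 0.507) that became -0.23 (SE 0.11, adjusted p = 0.118) without replicate 1. For Tap2 the values were 0.26 (SE 0.14, adjusted p = 0.159) and 0.08 (SE 0.09, edgeR adjusted p = 0.523), with a positive value in all 18 alternatives. Exons of Tap1 and Psmb9 overlap by 212 bases on opposite strands, and the strand setting of the counting is not given in the sources used here.

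Tapbp, which encodes tapasin, lies from 33915899 to 33929292 on chromosome 17. It was at 248, 226, 214 and 223 CPM in WT and at 229, 175, 180.5 and 193 CPM in Cxcr2-/- replicates 1 to 4. Replicates 2 to 4 lay below every WT library and replicate 1 among them. Its log2 fold change was -0.23 (SE 0.10, edgeR adjusted p = 0.0877) and -0.31 (SE 0.09, adjusted p = 0.0173) without replicate 1, and it was negative in all 18 alternatives.

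Nlrc5, on chromosome 8 from 94434356 to 94527272, had the widest spread of the 8 genes relative to its mean, in both groups. It was at 19.2, 38.8, 20.98 and 19.5 CPM in WT and at 51.1, 8.27, 11.2 and 14.6 CPM in Cxcr2-/- replicates 1 to 4, which rest on 299 to 2022 counts per library. Cxcr2-/- replicate 1 had 4.50 times the mean of the other 3 Cxcr2-/- libraries, and WT replicate 2 was the second highest of the 8. That WT library also had the highest sum of dendritic cell markers, 218 CPM, of which 193.6 CPM was H2-Ab1, a class II gene. It had the highest Ciita too, the class II transactivator related to Nlrc5, at 45.7 CPM against 4.54 to 16.8 CPM in the other 7. In Cxcr2-/- replicate 1 Ciita was at 11.6 CPM and the dendritic markers summed to 51.5 CPM. The log2 fold change of Nlrc5 was -0.21 (SE 0.47, edgeR adjusted p = 0.742). It was -1.11 (SE 0.26, adjusted p = 0.00460) without Cxcr2-/- replicate 1 and -0.82 (adjusted p = 0.00455) with WT replicate 2 left out as well, an alternative chosen after the data were seen.

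Erap1, the endoplasmic reticulum aminopeptidase, lies on chromosome 13 from 74639568 to 74693201. It was at 12.7, 18.0, 12.2 and 11.7 CPM in WT and at 18.4, 19.1, 18.2 and 20.2 CPM in Cxcr2-/- replicates 1 to 4. All Cxcr2-/- libraries were above all WT libraries, although WT replicate 2 came within 0.2 CPM of the lowest of them. The log2 fold change was 0.47 (SE 0.14, edgeR adjusted p = 0.0143), a 1.39-fold rise from 13.7 ± 2.95 to 19.0 ± 0.905 CPM (SD, n = 4), and it was 0.49 (SE 0.15, adjusted p = 0.0205) without Cxcr2-/- replicate 1. It did not pass with upper-quartile factors (log2 fold change 0.35, edgeR adjusted p = 0.0547) or total counts (0.38, adjusted p = 0.0712). Of its exon bases, 834 (11.5%) lie opposite exons of Cast, which encodes calpastatin and rose as well, from 164 ± 1.56 to 210.1 ± 23.3 CPM (log2 fold change 0.36, edgeR adjusted p = 0.00886). Among 4226 genes compared by a likeness of log2 profiles over the 8 libraries, those nearest to Erap1 were Dop1a and Atp10d, with root mean square differences of 0.110 and 0.113.

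**Figure D2:**
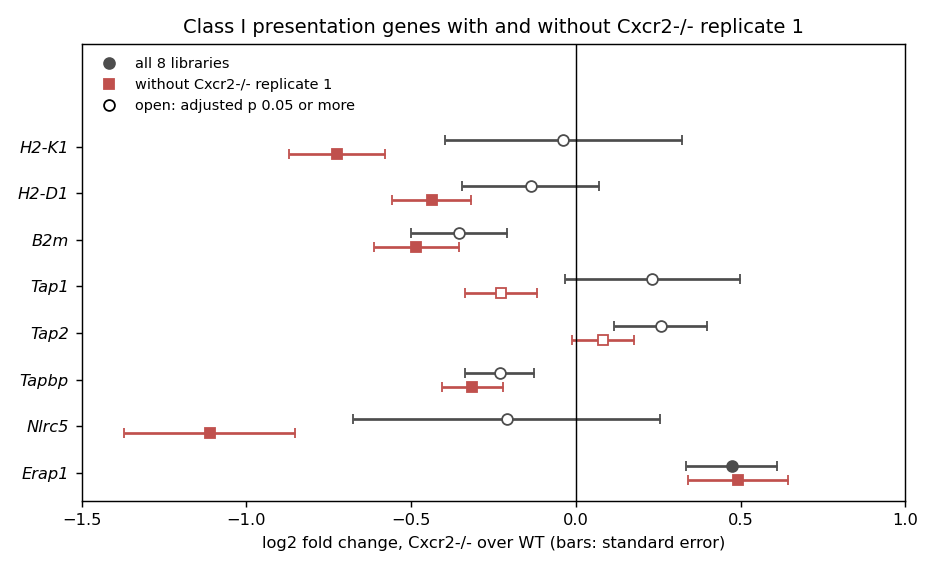
Log2 fold change of each gene, Cxcr2-/- over WT (x axis, bars for the standard error from edgeR), with all 8 libraries (grey circles) and without Cxcr2-/- replicate 1 (red squares), filled where the adjusted p is under 0.05. Only Erap1 is filled in grey, while H2-K1, H2-D1, B2m, Tapbp and Nlrc5 are filled in red to the left of 0 and Erap1 in red to the right.

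By count, 1 of the 8 genes was higher and 0 lower with all libraries, where edgeR called 44.7% of all genes tested, 23.7% higher and 21% lower. At an unadjusted p under 0.05, 1 was higher and 2 lower, and DESeq2 gave 1 higher and 1 lower, with 18.5% and 18.1% of all genes. With all libraries none reached a 1.5-fold change, which with the adjusted p was met by 15.7% of genes in each direction. Without Cxcr2-/- replicate 1, 1 was higher and 5 were lower, against 21.9% and 19.1% of the genes tested in that fit (41% in either direction). The median log2 fold change of the 8 genes moved from -0.09 to -0.38, and that of all genes tested was 0.013 and 0.008. The groups did not overlap for 1 of the 8 genes with all libraries (41.6% of all genes) and for 6 of 8 without replicate 1 (46.1%). That library was the highest of the 8 for 17.8% of all genes tested.

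**Figure D3:**
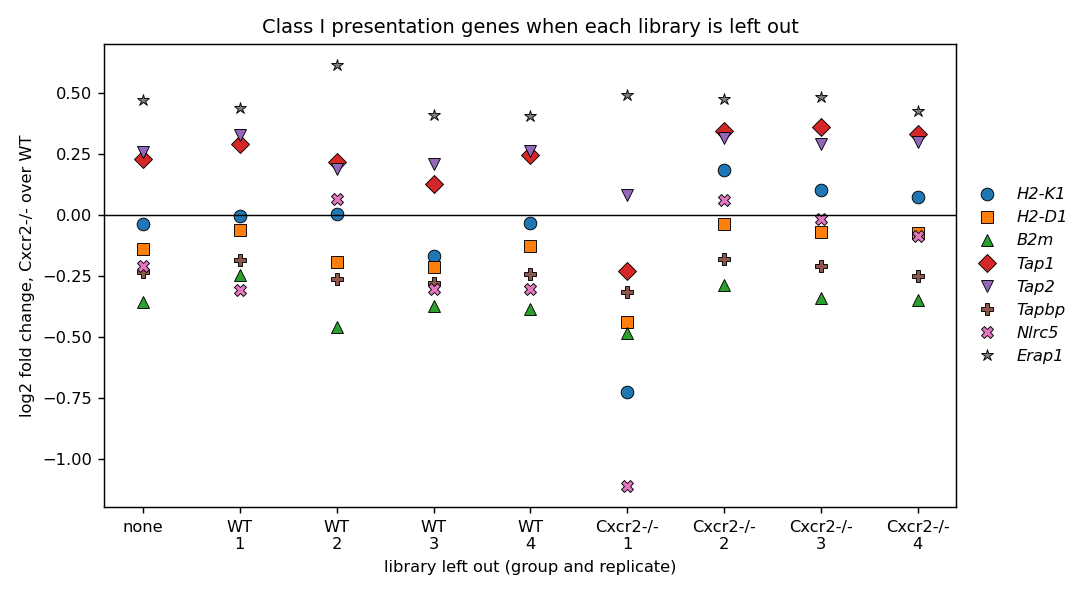
Log2 fold change of each of the 8 genes, Cxcr2-/- over WT (y axis, edgeR), with no library left out and with each library left out in turn (x axis). H2-K1 and Nlrc5 are lowest where Cxcr2-/- replicate 1 is left out, at -0.73 and -1.11, while Erap1 stays above 0 throughout.

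Of the 8 genes, 5 lie on chromosome 17 in or beside the H2 complex. In the stretch from Tapbp to the last class I gene listed (33915899 to 37483552), 140 genes were tested, and Cxcr2-/- replicate 1 was the highest of the 8 libraries for 38.6% of them, and for 32.2% of the 118 genes left when those of the class I lists were set aside, against 17.8% of all genes. Of the members on other chromosomes, Nlrc5 was highest in that library, and B2m and Erap1 were not. Whether this animal carried another H2 haplotype was not tested.

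The rest of the pathway was read from lists of 79 other genes, 75 of them found in the annotation and 69 tested. Of these, 20 were higher and 10 lower in Cxcr2-/- neutrophils, against 23.7% and 21% of all genes tested, and 20 were higher and 16 lower without replicate 1, against 21.9% and 19.1%. For the other heavy chains, 0 of 19 tested were higher and 3 lower (median log2 fold change -0.08). DESeq2 gave the same counts, and at an unadjusted p under 0.05, 0 were higher and 4 lower. Without replicate 1, 9 were lower (median -0.44). H2-T24 was at 24.7 to 31.6 CPM in WT and at 11.2 to 17.1 CPM in Cxcr2-/- libraries, without overlap (log2 fold change -1.04, edgeR adjusted p = 6.58e-05). H2-Q10 also passed, narrowly (-0.91, edgeR adjusted p = 0.0468). Its call was lost in the fits without WT replicate 1 (adjusted p = 0.0868), 2 (0.0950) or 4 (0.0799) and without Cxcr2-/- replicate 2 (0.114), 3 (0.0908) or 4 (0.0921), and its log2 fold change was -1.46 without Cxcr2-/- replicate 1. H2-M2 passed with -2.03 (edgeR adjusted p = 0.00924) from low and overlapping levels, 0.607 to 4.34 CPM in WT and 0.277 to 0.753 CPM in Cxcr2-/- libraries. The highest of these was WT replicate 2, without which the value was -1.28, and with voom quality weights the call was lost (adjusted p = 0.0511 by limma). H2-Q4 repeated the pattern of H2-K1, with 103, 106, 77.4 and 94.2 CPM in WT and 213, 67.9, 74.9 and 75.5 CPM in Cxcr2-/- replicates 1 to 4.

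Peptide loading and chaperone genes mostly rose, with 6 of 10 higher and 2 lower (median 0.35), or 6 and 1 without replicate 1. Of all genes tested, 23.7% were higher and 21% lower, and without replicate 1 21.9% and 19.1%. Pdia3, the disulfide isomerase of the loading complex, had a log2 fold change of 0.64 (edgeR adjusted p = 0.000142), and the lectin chaperone Canx one of 0.55 (adjusted p = 0.000314). Ganab, a glucosidase that trims the sugars calnexin reads, rose by 0.62 on the log2 scale. The chaperone Hspa5 fell, from 526 to 613 CPM in WT to between 249 and 315 CPM in Cxcr2-/- libraries (log2 fold change -1.07), and so did Lnpep, an aminopeptidase of endosomes (-0.36, edgeR adjusted p = 0.0204, with the call lost at 0.0522 without Cxcr2-/- replicate 1, 0.0641 without WT replicate 4 and 0.0676 without Cxcr2-/- replicate 3). Tapbpl, the tapasin-related editor, had -0.05 and Calr 0.24, and neither passed.

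Among proteasome and peptidase genes, 9 of 17 were higher and 0 lower (median 0.35), with 9 and 0 at an unadjusted p under 0.05 as well and the same counts with DESeq2. Of all genes tested, edgeR called 23.7% higher and 21% lower, and DESeq2 18.5% and 18.1%. The constitutive catalytic subunits Psmb5 and Psmb6 rose 1.79- and 1.95-fold (log2 fold changes 0.84 and 0.97), and Psmb7 by 0.35 on the log2 scale. The call of Psmb7 was lost with upper-quartile factors (edgeR adjusted p = 0.108) or total counts (0.0887) and without WT replicate 2 (0.0796), WT replicate 4 (0.0563) or Cxcr2-/- replicate 3 (0.0946). Their interferon-induced counterparts Psmb8, Psmb9 and Psmb10 had log2 fold changes of 0.24, 0.17 and 0.28 and missed the threshold (edgeR adjusted p = 0.255, 0.475 and 0.199). The activator subunits Psme1 and Psme2 rose by 0.62 and 0.59 on the log2 scale, and the cytosolic peptidase Blmh, with 5.70 to 8.31 CPM in WT and 13.1 to 16.3 CPM in Cxcr2-/- libraries, by 1.02.

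The immunoproteasome share, the counts of Psmb8, Psmb9 and Psmb10 as a percent of those of all 6 catalytic subunit genes, set both groups of subunits in 1 value. It was 71.2%, 69.6%, 66.2% and 69.3% in WT and 69.98%, 57.6%, 55.8% and 58.5% in Cxcr2-/- replicates 1 to 4. Replicates 2 to 4 lay below every WT library and replicate 1 among them. The group means were 69.1% ± 2.12 in WT and 60.5% ± 6.44 in Cxcr2-/- libraries (SD, n = 4), a difference of -8.60 percentage points (two-sided exact permutation test, p = 0.114). Without replicate 1 the difference was -11.8 points, with p = 0.0571 in the same exact test. With Psmb8 and Psmb9 over those and Psmb5 and Psmb6 alone, the difference was -10.6 points without overlap, at p = 0.0286 in the exact permutation test, the smallest that 4 against 4 libraries allow. The gap was narrow, with Cxcr2-/- replicate 1 at 76.8% and the lowest WT library at 77.4%. With counts per exon length for all 6 genes, the difference was -10.6 points and the groups overlapped (p = 0.0571, exact permutation test).

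**Figure D4:**
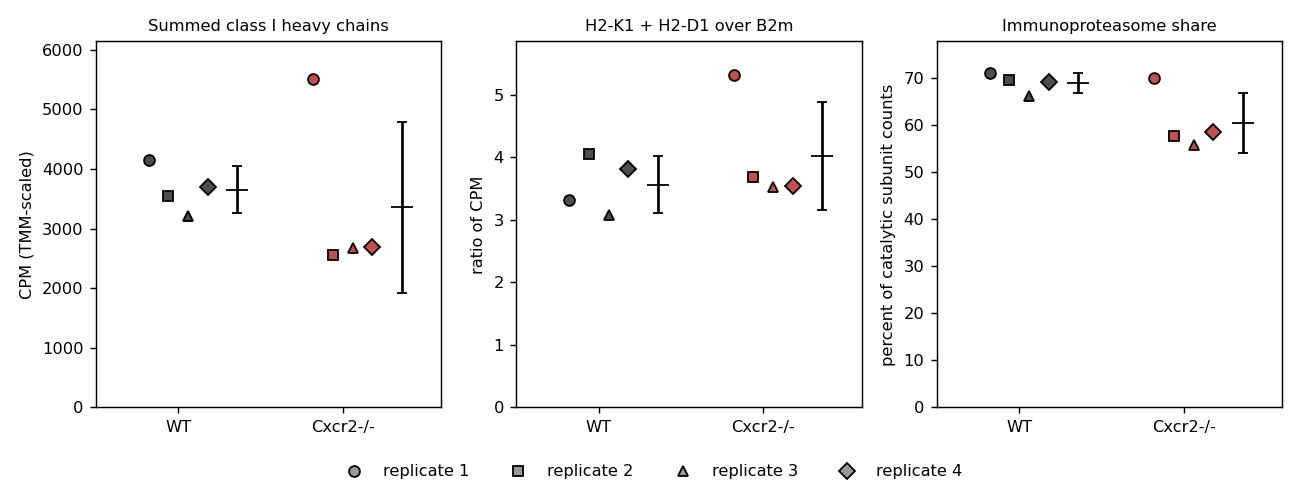
Summed CPM of the class I heavy chain genes, the ratio of H2-K1 plus H2-D1 to B2m in CPM, and the immunoproteasome share in percent (y axes from 0), for each WT (grey) and Cxcr2-/- (red) library, with the marker shape for the replicate number and a bar for mean and SD of 4 libraries. Cxcr2-/- replicates 2 to 4 lie below all WT libraries in the sum and the share, and replicate 1 lies above all of them in the sum and the ratio.

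Among the genes for class I transcription and interferon signaling, 5 of 23 were higher and 5 lower (median -0.15), where 23.7% of all genes tested were higher and 21% lower, or 5 and 6 without replicate 1. Irf1, an interferon-induced activator of these promoters, was at 333, 387, 265 and 339 CPM in WT and at 311, 134, 161 and 176 CPM in Cxcr2-/- replicates 1 to 4, with only replicate 1 inside the WT range. It fell by 0.76 on the log2 scale (edgeR adjusted p = 0.0133), and by 1.07 without replicate 1. Irf2 (-0.49, adjusted p = 0.000708) and the interferon receptor chain Ifnar1 (-0.41, edgeR adjusted p = 0.00114) were lower too, while Ifnar2, the partner chain of the same receptor, was higher (0.36, edgeR adjusted p = 0.00586). Of the X box, only the X2 core was searched above. The promoter factors Nfyb and Rfxank, of the NFY and RFX complexes of the Y and X box module, rose by 0.79 and 0.64 on the log2 scale. Of the other subunits, Rfxap was lower (-0.38, edgeR adjusted p = 0.0475, and 0.0910 without replicate 1), and Rfx5, Nfya and Nfyc, at -0.35, -0.12 and 0.005, did not pass. Stat2 rose by 0.60 (edgeR adjusted p = 0.0268), with 68.3 CPM in replicate 1 and 33.4 to 40.0 CPM in the other 3 Cxcr2-/- libraries, and by 0.31 without replicate 1 (edgeR adjusted p = 0.0472). Its call was lost without WT replicate 1 (0.0644) or 3 (0.0789) and with upper-quartile factors (0.0638).

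**Figure D5:**
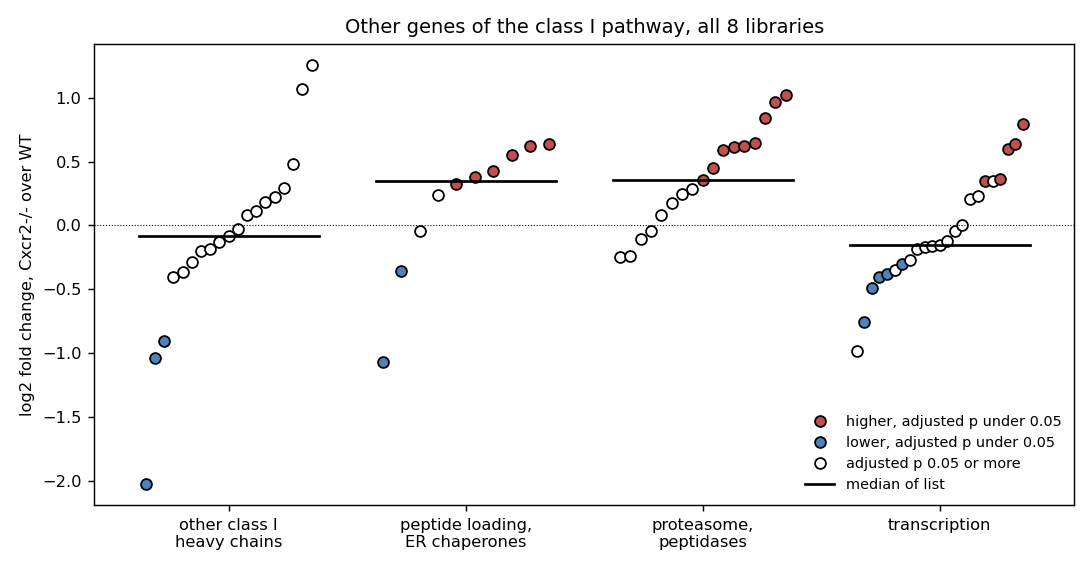
Log2 fold change, Cxcr2-/- over WT, of the 69 other class I pathway genes tested, by list and in rising order within each (points), filled red where higher and blue where lower with an adjusted p under 0.05 in edgeR, with a line for the median of each list. Filled points in the proteasome list are all above 0 (9 of 17), and those of the heavy chains all below (3 of 19). Of all genes tested, 23.7% were higher and 21% lower.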

How the data were processed

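RNA was measured in sorted spleen neutrophils of 4 WT and 4 Cxcr2-/- mice. The authors depleted ribosomal RNA, made directional libraries, sequenced paired ends and, after trimming, used STAR for alignment (mm10) and HTSeq for counting. The authors deposited whole-number counts per Ensembl gene, without normalization. Tool versions, annotation and strand setting are not given in the sources used here. FastQC and HTSeq are also named in the submitters' processing notes.

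Identifiers were matched to GENCODE M21 (GRCm38), which held 52081 of 55414, and 1.43% of counts lay on the others. HTSeq's own summary lines (26.7% to 41.5% of pairs met no gene) stayed out of library sizes. Counts were tested in R 4.3.3 with edgeR 4.0.16 (TMM, filterByExpr, quasi-likelihood test, 16778 genes, biological coefficient of variation 0.202), after a check on simulated data. DESeq2 1.42.0 and limma 3.58.1 (voom with quality weights, added after seeing the data) were alternatives, as were other factors, filters, a replicate block, a covariate for other cells' RNA and each library left out. Single values were compared with two-sided exact permutation tests. No 2 libraries were duplicates. Correlations of deviations ran from -0.252 to 0.15 between same-numbered libraries and from -0.181 to 0.251 between differently numbered ones. They did not set same-numbered libraries apart, but cannot exclude a shared litter or sort day. Named genes are all 8 members, up to 3 genes of each list in each direction with the largest passing changes, and the catalytic proteasome genes. H2-Q4, H2-T10, H2-Ab1, Cd3d, Csf1r, Csf3r, Ly6c2, Psme1, Psme2, Ifnar2, Rfxap, Rfx5, Nfya, Nfyc, Tapbpl, Calr, Cast, Ciita and the genes high in Cxcr2-/- replicate 1 were added after their values were seen. The members and lists were chosen with earlier results of these data known. P-values measure the spread between these mice. Counting intervals are not given, since the lowest member count was 299.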

Additional observations from a re-analysis of the deposited data

Results flagged for a closer look

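Among 66 groups of 4 libraries examined for the named genes and derived values, 12 had 1 library far from the other 3. Far means a gap past the critical value of Dixon's test at the 95% level. Chance flags about 1 in 20 independent groups, but these are not independent, as the heavy chain sum and ratio contain H2-K1 and H2-D1. Of the 12, 8 concerned Cxcr2-/- replicate 1. It had 646.4 CPM of H2-K1 (next library 211.1), 4454 CPM of H2-D1 (next 2316), 216.5 CPM of Tap1 (next 91.0), 116.0 CPM of Tap2 (next 76.83), 51.11 CPM of Nlrc5 (next 14.58) and 108.2 CPM of Psmb9 (next 60.5). Its summed heavy chain RNA was 12.43 on the log2 scale (next 11.39), and its ratio of heavy chains to B2m was 2.407 on the log2 scale (next 1.881).

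WT replicate 2 stood above the other WT libraries with 38.76 CPM of Nlrc5 and 18.05 CPM of Erap1. Cxcr2-/- replicate 3 was the highest of its group for the proteasome gene Psmb7, at 30.14 CPM, and WT replicate 4 the lowest of its group for the peptidase gene Blmh, at 5.698 CPM.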

How the results depend on the processing

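The number of the 8 class I genes higher in Cxcr2-/- neutrophils, 1, became 0 with upper-quartile factors, with total counts and with a 1.5-fold limit. The number lower, 0 with all libraries, was 1 with DESeq2, without the low count filter and with a covariate for RNA of other cells, 2 with upper-quartile factors, total counts, at least 10 counts in every library or voom quality weights, 5 with WT replicate 2 and Cxcr2-/- replicate 1 left out together, and 0 to 5 with each library left out, 5 without Cxcr2-/- replicate 1 and 1 without WT replicate 2. With the replicate number as a block 1 was lower, B2m (log2 fold change -0.36, adjusted p = 0.0144 by edgeR). Whether the numbers mark pairs of mice is not given in the sources used here. Upper-quartile factors moved the median log2 fold change of all genes by -0.119. Of the other pathway genes, 20 higher became 12 with a 1.5-fold limit, and 10 lower became 16 with upper-quartile factors, 5 with a 1.5-fold limit and 8 to 16 with each library left out. The immunoproteasome share differed by -8.60 points, and by -10.6 with Psmb8 and Psmb9 over Psmb5, Psmb6, Psmb8 and Psmb9 and per length.

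Directions turned only for values that had not passed. With each library left out, the log2 fold change ran from -0.725 to 0.185 for H2-K1, from -0.227 to 0.361 for Tap1, from -1.11 to 0.0669 for Nlrc5 and from -0.0936 to 0.277 for Psmb9, with the lowest value always without Cxcr2-/- replicate 1. H2-K1 was at 0.00568 without WT replicate 2 and at 0.185, 0.105 and 0.0748 without Cxcr2-/- replicates 2, 3 and 4. Tap1 was at -0.227 without Cxcr2-/- replicate 1, -0.0332 with voom quality weights and -0.23 with WT replicate 2 left out too. Nlrc5 was at 0.0669 without WT replicate 2 and 0.0632 without Cxcr2-/- replicate 2. Psmb9 was at -0.0936 without Cxcr2-/- replicate 1 and -0.154 with both left out, and Psmb8 at -0.0305 with both left out. Of 540 alternatives over 30 named genes, 480 kept direction and side of the threshold, 25 lost and 23 gained a call, and 12 turned direction. The cause was not tested.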
